A study of Mus musculus with 5 samples.

Results

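The 35 genes described here encode the machinery of autophagy and of its mitochondrial form, mitophagy. They were chosen by name, as initiation, nucleation, conjugation, receptor and mitophagy genes, from a table of 23234 genes. Of these, 34 were found by their listed symbol, and Atg101 was found as 9430023L20Rik, its older symbol in RefSeq. The filter of at least 1 FPKM (fragments per kilobase of transcript and per 1e6 mapped fragments) in at least 2 libraries left 10242 genes for testing. Among them were 33 of the 35 genes, all but Wipi1 and Park2.

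Autophagy encloses cytoplasm in a double membrane that later fuses with the lysosome. A kinase complex around ULK1 starts the process, a lipid kinase complex around PIK3C3 marks the site, and conjugation enzymes attach small ubiquitin-like proteins of the ATG8 family to the growing membrane. Cargo receptors such as SQSTM1 tie ubiquitin-tagged material to ATG8 proteins, and in mitophagy the kinase PINK1 and the ligase Parkin, or receptors in the mitochondrial outer membrane, direct damaged mitochondria into the same path. Germinal centre B cells divide and compete for antigen and T cell help, and mitochondrial turnover has been studied in them as part of B cell activation and memory.

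RNA sequencing was done on light zone germinal centre B cells from mouse spleen, the zone in which these cells meet antigen and T cells, to ask what loss of Csk does. Csk is a kinase that inhibits Src family kinases downstream of the B cell receptor. Labels give 3 Csk(+/+) libraries and 2 Csk(f/f) libraries, described by the submitters as biological replicates. Donor naive B cells carried either Csk(+/+) or Csk(fl/fl), and in both groups they also carried ERT2cre(KI/+), a Cre that tamoxifen activates, B1-8hi(KI/+), a rearranged receptor gene for the hapten NP, and the CD45.1/2 marker. They were transferred into C57BL/6J hosts with their own B cells. Hosts of both groups received NP-CGG in alum intraperitoneally on day 0 and tamoxifen on days 8 and 9, and NP-binding donor cells were sorted on day 11. The Cre therefore acted in the transferred cells, and the Csk(+/+) cells had been exposed to Cre and tamoxifen as well.

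The value of 1 fragment put the depth of the libraries at roughly 9420000 to 24200000 fragments, and they held 13291 to 14981 genes above 0. Csk itself stood at 378 to 436 FPKM in the Csk(+/+) libraries and at 453 to 476 in the f/f libraries, so the targeted gene was not lower there as deposited (log2 difference 0.18, and -0.14 after the GC correction described below; exact two-sided permutation p = 0.2, where the smallest possible is 0.1). Whether the FPKM covers the deleted exons was not tested, and directions below are between libraries as labelled, with those labelled Csk(f/f) called the f/f libraries. All 11 germinal centre B cell markers were present in every library, with summed levels of 3657 to 4828 and 4607 to 4842 FPKM. Light zone markers summed to 758 to 796 and 854 to 884 FPKM, and dark zone markers to 351 to 391 and 307 to 332. Neither sum overlapped between the groups. Single light zone markers differed in sign, with log2 differences of 0.36 for Cd83, 0.17 for Ccr6 and -0.34 for both Cd86 and Bcl2a1b. Of the T cell markers, 7 of 8 were in the table, at sums of 6.24 to 7.45 and 7.67 to 10.3 FPKM, with Cd3e and Cd3g at 0. Of these 7, 6 were under 1 FPKM in every library, so the sums rest mostly on 1 gene, with a mean of 7.50 FPKM. The 10 macrophage and monocyte markers summed to 12.4 to 21.5 and 24.6 to 24.7 FPKM, with Mertk at 0 and 8 of the 10 under 1 FPKM in every library. Plasma cell markers summed to 603 to 911 and 679 to 764 FPKM, with Prdm1 and Sdc1 under 1, and neutrophil markers to at most 2.71. The part of these other cells in the results below was not tested. These are bulk samples, in which fewer cells of a type and less RNA per cell cannot be told apart.

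None of the 33 tested genes passed an adjusted p of 0.05 in limma, where 0.0781% of all tested genes did in either direction. At an unadjusted p under 0.05, 5 had higher values in the f/f libraries and 2 had lower values, where 8.07% and 13.6% of all tested genes did. The 5 were Pink1, Sqstm1, Gabarap, Atg2a and Map1lc3a, and the 2 were Fundc1 and Atg3. In 9 genes both values labelled Csk(f/f) lay above all 3 Csk(+/+) values, and in 6 genes both lay below, where 20.7% and 24.5% of all tested genes did so. The median log2 difference (Csk(f/f) minus Csk(+/+), on the log2(FPKM + 1) scale) was 0.15, with 18 positive and 15 negative values, beside a median of -0.01 over all tested genes. Csk(+/+) replicate 3 had the lowest of the 3 Csk(+/+) values in 18 of the 33 genes. It was also low over all tested genes, with a median log2 deviation of -0.07, beside 0.07 and 0.05 for replicates 1 and 2. Without Csk(+/+) replicate 3, Pink1 and Gabarap passed, at limma adjusted p = 0.029 and 0.0477. In that fit 1.26% of all tested genes passed as higher and 2.79% as lower. In that fit 6 of the 33 had higher values and 4 had lower values at an unadjusted p under 0.05, beside 13.3% and 21.4% of all tested genes, and their median log2 difference was 0.027. Without that library and with the GC correction described below, neither Pink1 nor Gabarap passed, where 0.399% of all tested genes did.

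**Figure D1:**
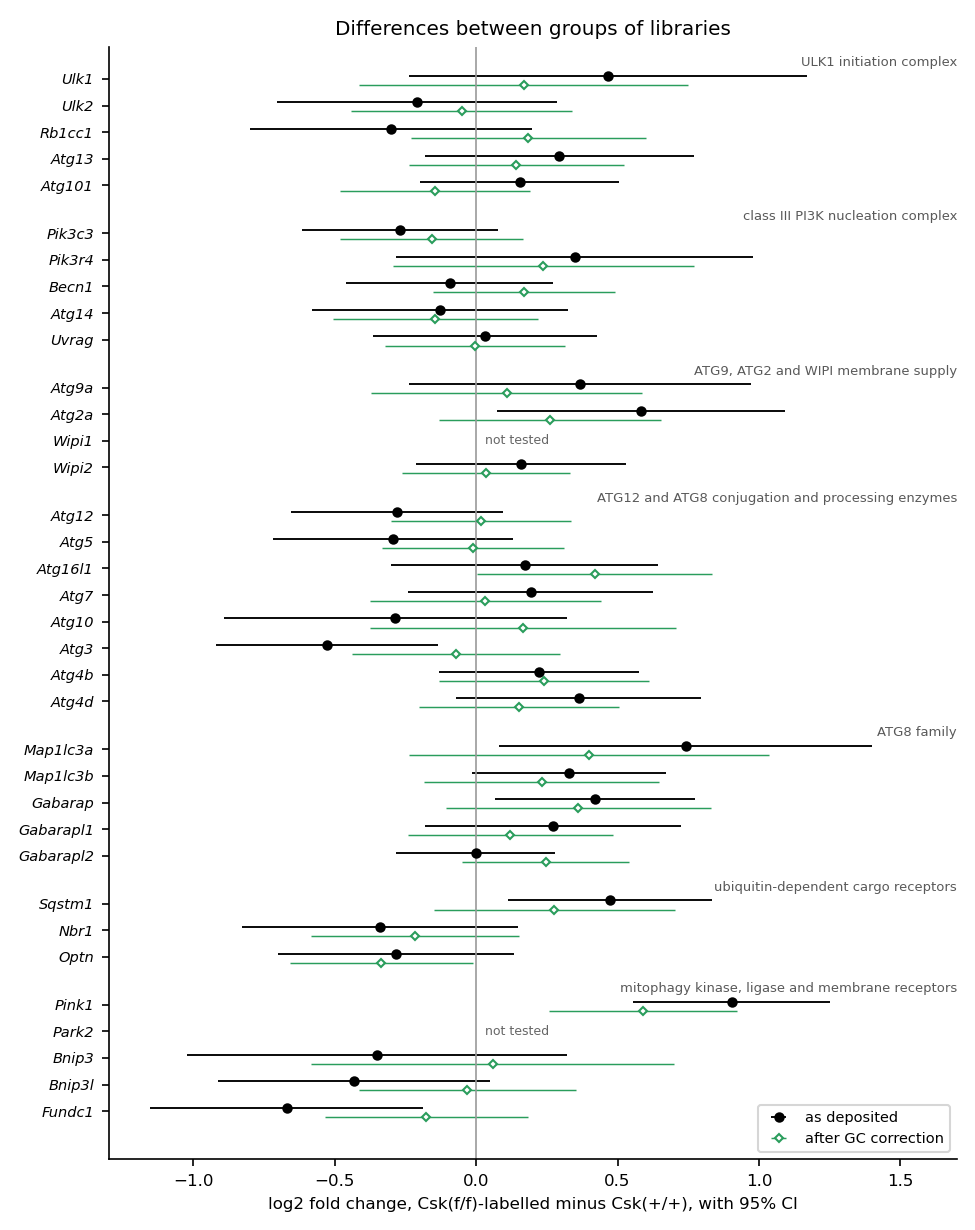
Log2 difference in log2(FPKM + 1) between the f/f libraries and the Csk(+/+) libraries for the 33 tested genes, grouped by role, with bars for the 95% confidence interval, as deposited and after the GC correction. Pink1 has the largest positive difference (0.90) and Fundc1 the largest negative one (-0.67), and no gene passed the adjusted threshold.

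The differences followed the base composition of the transcripts. Across the 33 genes, Spearman's rho between transcript GC content and the log2 difference was 0.88, and across the 10119 tested genes with a GC value it was 0.71. All points share the same 5 libraries, and genes are not independent replicates. All 8 genes with a GC content under 45% had negative differences (median -0.33), and all 12 at 52% or more had positive ones (median 0.36), while the 13 between these limits, which were chosen after the values were seen, were split into 6 positive and 7 negative. Among all tested genes, 8.10% were positive in the low class and 84.9% in the high class. With the trend against GC removed in each library, 2 of the 33 genes had higher values at an unadjusted p under 0.05 (Pink1 and Atg16l1) and 1 had lower values (Optn), where 4.89% and 5.08% of all genes did, and none passed the adjusted threshold, where 0.0791% of all genes did. After the correction 4 genes lay above the range of the Csk(+/+) libraries and 3 below it, where 14.6% and 13.9% of all genes did. The 4 were Pink1, Rb1cc1, Atg16l1 and Gabarapl2, and the 3 were Pik3c3, Atg14 and Optn. Among the genes with no overlap as deposited, only Pink1 and Pik3c3 still had none. Overlap between groups is given below for the deposited values unless the correction is named. Both libraries labelled Csk(f/f) deviated from the gene means in the direction of high GC content (rho of 0.54 and 0.66 across genes) and the 3 Csk(+/+) libraries in the other (-0.56, -0.21 and -0.41), so a GC trend of library preparation and one of genotype cannot be told apart. The difference of each of the 33 genes is also given after this correction, which also removes any real change that follows GC content.

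**Figure D2:**
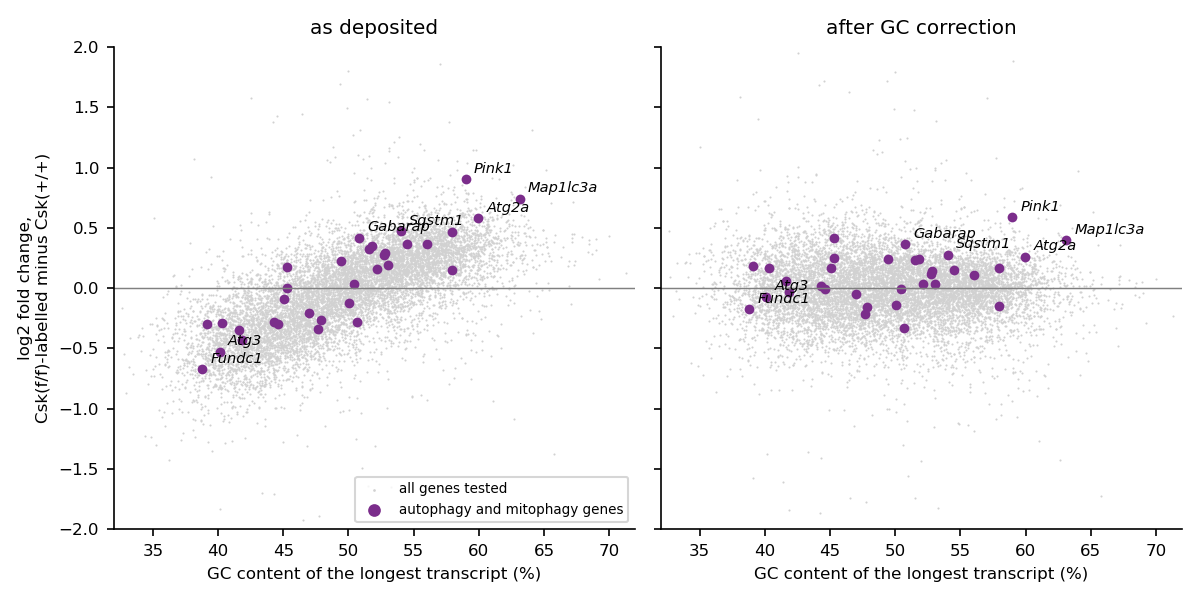
Log2 difference between the groups against transcript GC content (percent), with tested genes in grey and the 33 autophagy and mitophagy genes in colour, as deposited and after the GC correction; genes outside log2 differences of -2 to 2 or GC contents of 32% to 72% are not drawn. The deposited values climb with GC content (rho of 0.88 for the 33 genes), and the corrected ones follow it less (rho of 0.35).

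Promoter windows from RefSeq (build GRCm38.p6, 250 bases before to 50 after the start) were found for 27 of the 35 genes. Windows are shown for 2 genes with GC-rich transcripts and positive differences (Pink1, Sqstm1), 1 more of that kind with a different motif content (Atg2a), and 1 with an AT-rich transcript and a negative difference (Atg3). Each runs 5′ to 3′ on the gene's strand, and capitals mark the letters CACGTG (an E-box, the kind that TFEB and related factors bind), CCAAT (or ATTGG) and GGGCGG (a GC box, or CCGCCC), on either strand.
Pink1, chr4:138326247-138326546, minus strand: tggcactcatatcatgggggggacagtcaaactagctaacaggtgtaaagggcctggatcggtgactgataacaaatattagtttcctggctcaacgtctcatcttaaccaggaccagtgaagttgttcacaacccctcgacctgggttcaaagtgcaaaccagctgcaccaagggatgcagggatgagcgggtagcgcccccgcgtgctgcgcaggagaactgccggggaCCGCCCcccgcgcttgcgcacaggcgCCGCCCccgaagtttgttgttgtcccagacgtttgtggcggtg
Sqstm1, chr11:50210771-50211070, minus strand: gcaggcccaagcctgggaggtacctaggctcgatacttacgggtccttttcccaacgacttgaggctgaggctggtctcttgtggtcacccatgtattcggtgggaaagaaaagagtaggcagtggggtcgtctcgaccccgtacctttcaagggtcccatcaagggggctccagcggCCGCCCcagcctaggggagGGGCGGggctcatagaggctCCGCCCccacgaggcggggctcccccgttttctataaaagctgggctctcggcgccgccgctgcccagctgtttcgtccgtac
Atg2a, chr19:6241418-6241717, plus strand: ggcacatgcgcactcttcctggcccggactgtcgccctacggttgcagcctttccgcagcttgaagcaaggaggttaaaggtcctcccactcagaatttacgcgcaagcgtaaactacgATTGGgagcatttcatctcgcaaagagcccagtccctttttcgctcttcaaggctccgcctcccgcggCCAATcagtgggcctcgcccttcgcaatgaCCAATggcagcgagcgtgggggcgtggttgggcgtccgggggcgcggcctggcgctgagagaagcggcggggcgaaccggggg
Atg3, chr16:45158579-45158878, plus strand: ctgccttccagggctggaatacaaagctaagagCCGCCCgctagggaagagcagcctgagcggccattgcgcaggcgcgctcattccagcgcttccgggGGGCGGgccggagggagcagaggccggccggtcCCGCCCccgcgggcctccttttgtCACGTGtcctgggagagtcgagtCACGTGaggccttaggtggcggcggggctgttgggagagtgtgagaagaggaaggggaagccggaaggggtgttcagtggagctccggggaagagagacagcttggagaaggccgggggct
The Atg3 window held 2 E-boxes and 3 GC boxes, the Pink1 window 2 GC boxes, the Sqstm1 window 3 GC boxes, and the Atg2a window 3 CCAAT boxes. Among these 4, Atg3, whose transcript is AT-rich, had the most GC-rich window, at 67.3%. The windows of Gabarap, with a positive difference, and Fundc1, with a negative one, are not shown. Each of them held 0 of these 3 motifs, at 45.7% and 59.3% GC. The letters CACGTG were in the windows of 5 of the 27 genes (Atg14, Atg5, Atg7, Atg3 and Bnip3), or 18.5%, beside 8.09% of all genes with a window. GGGCGG was in 19 of 27 (70.4% beside 38.2%), and CCAAT in 8 of 27 (29.6% beside 41.1%). The core of the antioxidant response element, searched as TGACNNNGC on both strands, was in the windows of Ulk2, Atg13 and Map1lc3b, or 11.1% beside 14.0%. The median GC content of the genes' windows was 60.8%, and that of all windows 52.7%. The shares of all genes are over 27025 genes with a window, which include genes that failed the FPKM filter. Shares among the tested genes alone were not computed. A match is a run of letters and not a measured binding site.

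By level, 6 of the 33 genes had means of 50 FPKM or more, 14 of 10 to 50, and 13 under 10. FPKM is scaled per length, so levels of different genes can be set side by side. The median of the means was 13.3 FPKM, beside 12.4 for all tested genes. Gabarap and Sqstm1 were in the top 10% of tested genes, and 6 of the genes were in the bottom 25%.

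**Figure D3:**
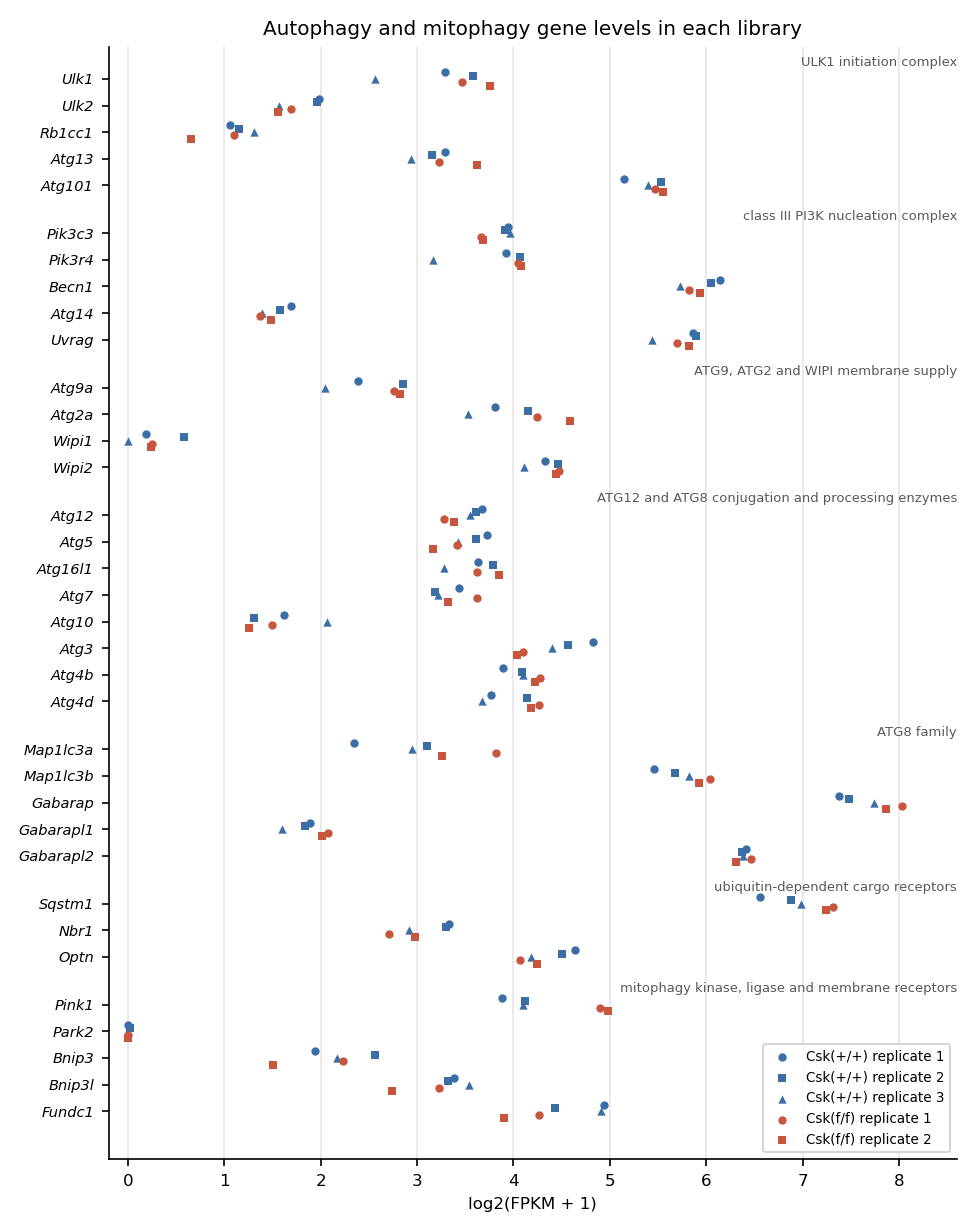
Level of each of the 35 autophagy and mitophagy genes in the 5 libraries, as log2(FPKM + 1), grouped by role, with 1 point per library. Levels run from Park2, at or near 0, to Gabarap at 165 to 261 FPKM, and the spread between genes is far wider than that between libraries.

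Pink1, the kinase that accumulates on damaged mitochondria and starts ubiquitin-dependent mitophagy, had the largest difference. Its Csk(+/+) values were 13.7, 16.4 and 16.1 FPKM, and its values in the f/f libraries were 28.7 and 30.5. The groups did not overlap, with means of 15.4 ± 1.47 (SD, n = 3) and 29.6 ± 1.29 (SD, n = 2). The log2 difference was 0.90 ± 0.15 (SE; 95% interval 0.55 to 1.25), with unadjusted p = 0.000393 and limma adjusted p = 0.128. It equals a 1.87-fold ratio on the FPKM + 1 scale, and the ratio of the FPKM means was 1.92. The corrected difference was 0.59 ± 0.14 (SE; adjusted p = 0.357). Over every alternative setting run, its log2 difference lay between 0.59 and 0.95 and its limma adjusted p between 0.029 and 0.779.

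Park2, which encodes Parkin, the ubiquitin ligase that PINK1 activates, was listed at 0 in 4 libraries and at 0.0157 FPKM in Csk(+/+) replicate 2. It failed the filter on low values and was not tested. The Pink1 values above thus came from libraries in which Park2 was at or near 0.

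As deposited, the mitophagy receptors that act without ubiquitin had differences in the opposite direction from Pink1. Their transcripts had 38.8% to 41.9% GC, and of all tested genes under 45% GC, 8.10% had positive differences. After the GC correction Fundc1 and Bnip3l kept a negative sign, while Bnip3 stood at 0.06. Fundc1, an outer membrane receptor, stood at 29.6, 20.5 and 29.0 FPKM in Csk(+/+) and at 18.3 and 14.0 in the f/f libraries. The groups did not overlap, and the log2 difference was -0.67 ± 0.21 (SE; 95% interval -1.15 to -0.19; limma adjusted p = 0.171). With the GC correction it was -0.18 (adjusted p = 0.758), for a transcript of 38.8% GC. The ratio of Pink1 to Fundc1 was 0.606 ± 0.173 (SD, n = 3) and 1.88 ± 0.434 (SD, n = 2), a comparison of transcripts of 59% and 38.8% GC.

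Bnip3l, also called NIX, a receptor known for clearing mitochondria from maturing red cells, had values of 9.45, 9.01 and 10.6 FPKM against 8.38 and 5.68. The groups did not overlap, but the log2 difference of -0.43 ± 0.21 (SE; adjusted p = 0.263) was -0.03 after the GC correction. Bnip3, its relative and a hypoxia-responsive gene, stood at 2.84, 4.91 and 3.49 FPKM against 3.71 and 1.85, and these values overlapped (log2 difference -0.35 ± 0.29, adjusted p = 0.479, and 0.06 after the GC correction). Both genes have near-identical copies in the genome, with at least 90% identity over 300 bases or more, so their values are uncertain. Erythroid marker RNA, whose source cells use Bnip3l, was present in every library, at summed levels of 190 to 969 FPKM in Csk(+/+) and 199 to 466 in the other group, and its part in these values was not tested.

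**Figure D4:**
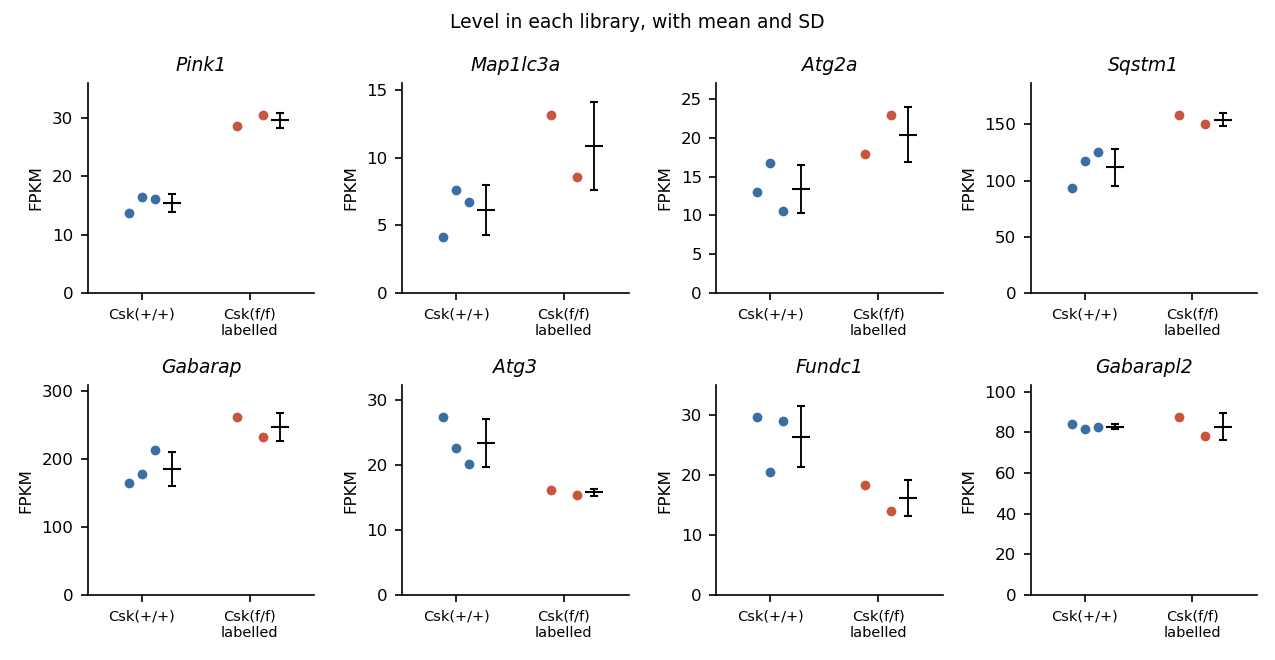
FPKM in each library (points), with the group mean and SD beside them (n = 3 and n = 2), for the 7 genes at an unadjusted p under 0.05 and for Gabarapl2, whose group means were equal. Pink1 shows the widest gap between groups relative to its spread, from at most 16.4 FPKM in Csk(+/+) to at least 28.7 in the f/f libraries.

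Among the cargo receptors, Sqstm1 (p62) was the most abundant and was the receptor with a positive difference. It stood at 93.0, 117 and 125 FPKM in Csk(+/+) and at 158 and 150 in the f/f libraries. The log2 difference was 0.47 ± 0.16 (SE; 95% interval 0.11 to 0.83; limma adjusted p = 0.177), and 0.28 after the GC correction (adjusted p = 0.661). The gene Mrnip overlaps its exons by 580 bases on the opposite strand, and since the strand of the counts is not given, these reads cannot be told apart. Mrnip itself stood at 6.38 to 10.7 FPKM.

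Nbr1, a receptor that binds both ubiquitin and ATG8 proteins, had values of 9.03, 8.88 and 6.53 FPKM against 5.54 and 6.86, which overlapped. Its log2 difference was -0.34 (adjusted p = 0.356), and -0.22 after the GC correction. Optn, the optineurin receptor that TBK1 phosphorylates, stood at 23.8, 21.6 and 17.2 FPKM against 15.8 and 17.9, also overlapping. Its log2 difference was -0.28 (adjusted p = 0.364), and -0.33 with the GC correction (unadjusted p = 0.0438, adjusted p = 0.488). Of the summed FPKM of the 3 receptors, Sqstm1 made up 79.1% ± 5.10 (SD) over the 3 Csk(+/+) libraries and 87.0% ± 1.62 over the 2 f/f libraries.

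The ATG8 family held 4 of its 5 genes at positive differences as deposited, beside 48.7% of all tested genes, with a median of 0.33. After the GC correction all 5 were positive, beside 50.2% of all genes, with a median of 0.25. As deposited 4 of the 5 lay above the Csk(+/+) range, beside 20.7% of all tested genes. After the correction only 1 did, Gabarapl2, beside 14.6%. Gabarap, the most abundant and a late-acting member of the family, stood at 165, 177 and 213 FPKM in Csk(+/+) and at 261 and 233 in the f/f libraries. The groups did not overlap, with a log2 difference of 0.42 ± 0.15 (SE; 95% interval 0.07 to 0.77; limma adjusted p = 0.198), and 0.36 after the GC correction (adjusted p = 0.596). Over the alternatives its adjusted p lay between 0.0477 and 0.779.

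Map1lc3a, which encodes LC3A, had values of 4.09, 7.61 and 6.72 FPKM against 13.2 and 8.58, with no overlap. Its log2 difference was 0.74 ± 0.28 (SE; adjusted p = 0.208), and 0.40 after the correction, for the most GC-rich transcript of the 33, at 63.1%. Map1lc3b, the LC3 gene whose protein is the usual marker of autophagosomes, stood at 43.0, 50.3 and 55.5 FPKM against 64.9 and 59.5, with no overlap. Its log2 difference was 0.33 ± 0.15 (SE), at unadjusted p = 0.0583 and adjusted p = 0.244, and 0.23 after the correction.

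Gabarapl1 stood at 2.70, 2.58 and 2.02 FPKM against 3.20 and 3.05, also with no overlap, a log2 difference of 0.27 (adjusted p = 0.419, and 0.12 after the correction). Gabarapl2, also called GATE-16, stood at 84.2, 81.6 and 82.5 FPKM against 87.4 and 78.0, which gave equal means of 82.7 FPKM. The 95% interval of its log2 difference ran from -0.28 to 0.28, and its sign turned positive with the GC correction (0.25) and with median-ratio rescaling (0.04). It also has near-identical copies, so its level is uncertain.

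Added together, the 5 ATG8 genes reached 326 ± 31.1 FPKM over the 3 Csk(+/+) libraries and 406 ± 33.8 over the 2 f/f libraries (mean ± SD). Gabarap made up 56.6% ± 2.25 and 60.8% ± 0.130 of this sum, and Gabarapl2 25.5% ± 2.62 and 20.4% ± 0.0613. Map1lc3b held 15.2% and 15.3%, Map1lc3a 1.87% and 2.66%, and Gabarapl1 0.757% and 0.772%. Genes of the GABARAP branch thus held most of the family's summed FPKM in both groups.

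**Figure D5:**
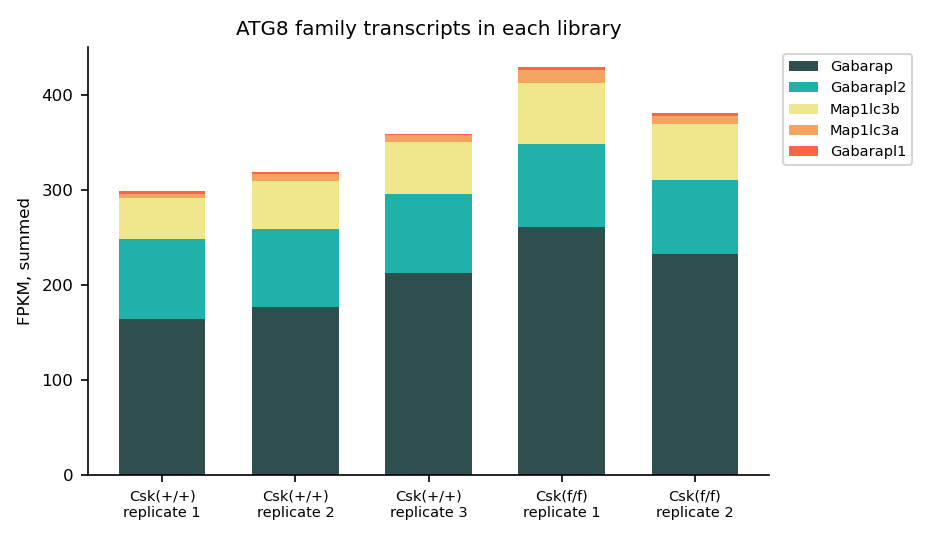
FPKM of the 5 ATG8 family genes, stacked in 1 bar per library. Gabarap takes the largest part of every bar, and the sums are higher in both libraries labelled Csk(f/f) (mean 406 FPKM) than in the 3 Csk(+/+) libraries (mean 326).

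The enzymes that prepare and attach ATG8 proteins had a median log2 difference of -0.06 over 8 genes. With the GC correction the median was 0.09, and 6 of the 8 were positive, beside 50.2% of all genes. Atg3, the E2-like enzyme that hands ATG8 proteins to the lipid, stood at 27.3, 22.6 and 20.2 FPKM in Csk(+/+) and at 16.1 and 15.4 in the f/f libraries. The groups did not overlap, with a log2 difference of -0.53 ± 0.17 (SE; 95% interval -0.92 to -0.14; limma adjusted p = 0.176). With the GC correction it was -0.07 (adjusted p = 0.917), for a transcript of 40.1% GC and the promoter with 2 E-boxes shown above.

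Atg12 and Atg5, which are joined into 1 conjugate that aids lipidation, were both below the Csk(+/+) range in the f/f libraries. Atg12 stood at 11.8, 11.3 and 10.7 FPKM against 8.74 and 9.41 (log2 difference -0.28, adjusted p = 0.324, and 0.02 after the GC correction). Atg5 stood at 12.2, 11.2 and 9.74 FPKM against 9.67 and 7.97 (-0.30, adjusted p = 0.356, and -0.01). Both differences were near 0 once the GC trend was removed.

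Atg16l1, the partner that places this conjugate on the membrane, had overlapping values of 11.4, 12.8 and 8.70 FPKM against 11.3 and 13.4. Its log2 difference of 0.17 became 0.42 with the GC correction (unadjusted p = 0.0486, adjusted p = 0.501), and 0.03 without Csk(+/+) replicate 3. Atg7, the E1-like enzyme that activates both ATG12 and ATG8 proteins, stood at 9.78, 8.10 and 8.30 FPKM against 11.3 and 8.97 (0.19, adjusted p = 0.549, and 0.03 after the GC correction), and these overlapped.

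Atg10, the E2-like enzyme for ATG12, was low, at 2.06, 1.47 and 3.20 FPKM against 1.82 and 1.40 (-0.29, adjusted p = 0.521, and 0.17 after the GC correction). Atg4b and Atg4d, proteases that trim ATG8 proteins, were both above the Csk(+/+) range as deposited, but not after the GC correction. Another such protease, Atg4a, given with the further genes below, lay under that range. Atg4b stood at 13.9, 16.0 and 16.2 FPKM against 18.4 and 17.6 (0.22, adjusted p = 0.399, and 0.24 after the GC correction), and Atg4d at 12.6, 16.7 and 11.8 FPKM against 18.2 and 17.1 (0.36, adjusted p = 0.289, and 0.15 after the GC correction). Atg4b has a near-identical copy, and Atg4d overlaps Kri1 (18.5 to 30.4 FPKM) by 1405 exon bases on the opposite strand, so both are uncertain.

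The initiation complex had a median log2 difference of 0.15 over 5 genes, none with groups that did not overlap. Ulk1, the kinase that nutrient sensors act on, stood at 8.81, 11.0 and 4.91 FPKM in Csk(+/+) and 10.1 and 12.5 in the f/f libraries. Its log2 difference was 0.47 ± 0.30 (SE; adjusted p = 0.374), and 0.17 after the GC correction. Csk(+/+) replicate 3 had the lowest value, and without it the deposited difference was 0.18. Ulk2, its relative, stood at 2.95, 2.90 and 1.96 FPKM against 2.24 and 1.94 (-0.21, adjusted p = 0.569, and -0.05 after the GC correction), and Ulk1 was 2.50 to 6.44 times the level of Ulk2 over the libraries.

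Atg13 and Atg101, the adaptor pair of the complex, had overlapping values. Atg13 stood at 8.80, 7.93 and 6.67 FPKM against 8.40 and 11.3 (0.29, adjusted p = 0.404, and 0.14 after the GC correction), and Atg101 at 34.5, 45.3 and 41.0 FPKM against 43.3 and 46.0 (0.15, adjusted p = 0.558, and -0.15 after the GC correction). Rb1cc1, the scaffold also called FIP200, was the lowest of the 5, at 1.09, 1.23 and 1.48 FPKM against 1.14 and 0.573 (-0.30, adjusted p = 0.416, and 0.18 after the GC correction). A near-identical copy makes the Rb1cc1 value uncertain.

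Of the lipid kinase complex, Pik3c3, the catalytic subunit VPS34, stood at 14.4, 14.0 and 14.7 FPKM in Csk(+/+) and at 11.7 and 11.9 in the f/f libraries, with no overlap. The log2 difference was -0.27 ± 0.15 (SE; adjusted p = 0.313), and -0.16 after the GC correction. Pik3r4, its regulatory subunit, stood at 14.1, 15.7 and 7.97 FPKM against 15.6 and 15.9, where Csk(+/+) replicate 3 was far below the other libraries (0.35, adjusted p = 0.455, and 0.24 after the correction). Without that library the Pik3r4 difference was 0.07.

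Becn1, the Beclin 1 subunit, stood at 69.5, 65.3 and 51.8 FPKM against 55.3 and 60.3 (-0.09, adjusted p = 0.733), a difference that was 0.17 after the GC correction and -0.22 without Csk(+/+) replicate 3. Atg14 and Uvrag encode the alternative subunits that place the complex at autophagosome or endosome membranes. Atg14 stood at 2.23, 1.98 and 1.62 FPKM against 1.58 and 1.80 (-0.13, adjusted p = 0.709, and -0.14 after the GC correction), and Uvrag at 57.1, 58.5 and 42.3 FPKM against 51.0 and 55.6. Uvrag was 25.6 to 32.2 times as abundant as Atg14 in each library, and its log2 difference of 0.03 had a 95% interval of -0.36 to 0.43. That difference was -0.0052 after the correction and -0.12 without Csk(+/+) replicate 3. Becn1 and Uvrag share exon bases with a gene on the opposite strand.

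Among the genes that supply membrane, Atg2a, a lipid transfer protein that feeds the growing membrane, stood at 13.0, 16.7 and 10.6 FPKM in Csk(+/+) and at 17.9 and 23.0 in the f/f libraries. The groups did not overlap, and the log2 difference was 0.58 ± 0.22 (SE; 95% interval 0.07 to 1.09; limma adjusted p = 0.203), and 0.26 after the GC correction (adjusted p = 0.656). Atg9a, the scramblase in ATG9 vesicles, stood at 4.22, 6.22 and 3.11 FPKM against 5.77 and 6.10 (0.37, adjusted p = 0.412, and 0.11 after the correction), with overlap. Without Csk(+/+) replicate 3 the Atg9a difference was 0.18.

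Wipi2, which reads the lipid made by VPS34 and recruits ATG16L1, stood at 19.1, 21.1 and 16.2 FPKM against 21.3 and 20.7 (0.16, adjusted p = 0.567, and 0.03 after the correction), and its difference was 0.06 without Csk(+/+) replicate 3. Wipi1, a relative with a similar role, stood at 0.144, 0.495 and 0 FPKM against 0.192 and 0.178 and was not tested. The more distant relatives Wdr45 and Wdr45b, counted among the further core genes below, passed the filter.

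The further genes of the pathway, in lists chosen as the 35 were, had no gene past the adjusted threshold either. Their counts at an unadjusted p under 0.05 stand beside 8.07% of all tested genes with higher values and 13.6% with lower values. Of 19 tested core autophagy and fusion genes, 0 had higher and 2 had lower values at that level. These were Atg4a, another ATG8 protease (6.47 ± 0.882 and 3.27 ± 0.197 FPKM, SD; -0.80, limma adjusted p = 0.154, and -0.41 after the GC correction), and Sh3glb1, a Beclin 1 partner (21.9 ± 1.78 and 15.8 ± 2.11 FPKM; -0.45, adjusted p = 0.190, and -0.11 after the GC correction). Of 23 tested selective autophagy and mitophagy genes, 2 were higher and 3 lower at that level, led by Usp15, a deubiquitinase that opposes Parkin (14.7 ± 2.37 and 7.76 ± 1.36 FPKM; -0.84, adjusted p = 0.154), and Tbk1, the kinase of cargo receptors (9.19 ± 1.77 and 5.25 ± 0.200 FPKM; -0.69, adjusted p = 0.165). After the GC correction Usp15 stood at -0.46 and Tbk1 at -0.44, and neither passed. The shares of both lists were near or below those of all genes.

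Of 27 tested mTORC1, AMPK and nutrient sensing genes, 4 had higher values and 4 had lower values at that level, and the share with lower values was near that of all genes. Without Csk(+/+) replicate 3, 1 of the 27 passed, Flcn, a regulator of the Rag GTPases named after its values were seen (0.66, limma adjusted p = 0.0465, against 0.97 and 0.166 with all libraries). Lamtor1, the anchor of the Ragulator complex on lysosomes, stood at 90.0 ± 10.8 and 62.8 ± 2.78 FPKM (-0.51, limma adjusted p = 0.155), and kept -0.46 after the GC correction. Akt1s1, an inhibitory mTORC1 subunit, stood at 19.5 ± 1.89 and 28.1 ± 0.383 FPKM (0.51, adjusted p = 0.161), and at 0.18 after it. Of 5 tested transcription factors of autophagy and lysosome genes, 4 had positive differences with all libraries, beside 48.7% of all tested genes. Without Csk(+/+) replicate 3, 2 had positive differences. With all libraries 1 was higher at that level, Tfeb, a master regulator of lysosome genes (65.6 ± 5.82 and 84.9 ± 0.995 FPKM, log2 difference 0.37, limma adjusted p = 0.190). The Tfeb difference was 0.03 after the correction. Tfe3, its relative, stood at 16.6 ± 2.86 and 20.4 ± 1.74 FPKM (0.29, adjusted p = 0.366, and 0.17 after the GC correction).

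Lysosomal genes, the end point of the pathway, are given for comparison. Of 30 tested hydrolases, 25 had positive differences (median 0.39) and 16 had higher values at an unadjusted p under 0.05, with 0 lower, where 48.7% of all tested genes were positive, 8.07% higher and 13.6% lower. With the GC correction 29 of the 30 were positive, at a median of 0.33, where 50.2% of all genes were positive. Of 25 tested membrane and proton pump genes, 19 were positive (median 0.26), 9 had higher values at that level and 0 lower, and the median was 0.33 after the correction. No gene of either list passed the adjusted threshold with all libraries. Without Csk(+/+) replicate 3, 6 hydrolases passed as higher, Gaa (limma adjusted p = 0.0219) and Dnase2a (0.0262) among them. So did 3 membrane and pump genes, Atp6v0c, Atp6v0b and Lamp1, the last named after its values were seen, where 1.26% of all tested genes did. With the GC correction added to that fit, 0.399% of all tested genes passed. The result of that fit for these genes and for Flcn is not given here. Gaa, acid alpha-glucosidase, stood at 10.2 ± 1.48 and 23.7 ± 2.01 FPKM (1.14, limma adjusted p = 0.128, and 0.82 after the correction), and Dnase2a, the lysosomal DNase, at 0.91 (0.67 after it). The proton pump subunits Atp6v0c and Atp6v0b had log2 differences of 0.70 and 0.69 (0.58 and 0.43 after it). The autophagy and mitophagy genes had medians of 0.15 and 0.12 on the same scales, and the difference between the lists was not tested. Macrophages also express these genes. Their marker sums, given above, were low and did not overlap between the groups. Of the 10 markers, 8 were under 1 FPKM in every library, and the highest mean was 11.2 FPKM. The part of such cells was not tested.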

How the data were processed

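The deposited table holds FPKM values per gene for 5 libraries of sorted mouse spleen B cells. Per the submitters' processing notes, the authors used TopHat2 2.0.8 and Cufflinks 2.1.1 with the mm9 build; the annotation, options and strand setting are not given in the sources used here. Libraries were made with the NEBNext Ultra RNA kit, per the labels' protocols. FPKM is scaled for depth and length but keeps composition bias between libraries, and its depth was estimated from the value of 1 fragment.

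From these values, log2(FPKM + 1) was tested with limma 3.58.1 (R 4.3.3; trended variance, two-sided, Benjamini-Hochberg over 10242 genes with at least 1 FPKM in at least 2 libraries). The threshold was an adjusted p of 0.05. Values in the text are log2(FPKM + 1) differences, which understate the change of low genes. P-values set the difference between groups against the spread within groups of 3 and 2 libraries, with each gene's variance drawn toward the trend over all tested genes. For the GC correction, a lowess curve (span 0.3) of each library's log2 deviations on the GC content of the longest GENCODE M21 transcript (GRCm38) was subtracted. From that annotation overlaps and near-identical copies were also taken. Promoter windows are from RefSeq. The fit was tested on simulated data.

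The genes and lists were chosen with earlier results of these data known. All 35 genes are named; from each further list the 2 genes with the smallest unadjusted p are named, since none passed. The fits with replicate number as a block, other pseudocounts, filters and scalings, and those without each library are given in the closing section.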

Additional observations from a re-analysis of the deposited data

How the results depend on the processing

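The comparison rests on 3 and 2 libraries, and a p that misses the threshold does not show equal levels. None of the 33 genes passed as deposited; over fits without 1 library 0 to 2 passed (2 without Csk(+/+) replicate 3: Pink1 and Gabarap), where 0.0492% to 4.05% of all tested genes did. Genes with higher values at an unadjusted p under 0.05 numbered 5 as deposited, 2 with the GC correction and 2 to 6 without 1 library, where 8.07%, 4.89% and 1.52% to 13.3% of all tested genes did. Genes with lower values numbered 2 as deposited, 1 with the GC correction, 3 with no filter and 0 to 4 without 1 library, beside 13.6%, 5.08%, 8.59% and 3.66% to 21.4%, or 1 without Csk(+/+) replicate 3 and with the GC correction, beside 9.84%. The median log2 difference was 0.15, 0.032 with no filter and 0.027 to 0.15 without 1 library.

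Replicates 1 and 2 share their number between groups, but their deviations correlated at -0.13 and 0.11, so the numbers were not taken as pairs. With the replicate block, which leaves Csk(+/+) replicate 3 without a partner, 2 genes passed (Pink1 at adjusted p = 0.0387 and Atg3 at 0.0499, whose adjusted p over all alternatives ran to 0.779 and 0.917), 5 were lower at an unadjusted p under 0.05, and the median was 0.027; of all tested genes 4.8% passed and 22.7% were lower in that fit. With the block and the GC correction 1 gene passed (Pink1, log2 difference 0.68), and 1 was lower at an unadjusted p under 0.05, beside 1.48% and 10.3% of all tested genes.

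Of 489 values of single genes under the alternatives, 443 kept their direction and side of the threshold, 5 passed where they had not, and 41 changed sign; the cause was not tested. With the GC correction, with it and the replicate block, and with it and without Csk(+/+) replicate 3, the log2 difference of Atg10 was 0.17, 0.36 and 0.37, of Atg101 -0.15, -0.073 and -0.073, of Atg12 0.018, 0.025 and 0.028, of Becn1 0.17, 0.092 and 0.094, of Rb1cc1 0.18, 0.23 and 0.24, of Bnip3 0.058, 0.041 and 0.045, of Gabarapl2 0.25, 0.29 and 0.30, of Uvrag -0.0052, -0.094 and -0.096, and of Csk -0.14, -0.074 and -0.075. Under the last pair of these settings it was 0.044 and 0.048 for Bnip3l, -0.067 and -0.067 for Ulk1, -0.0073 and -0.0099 for Wipi2, and -0.031 and -0.031 for Atg9a. Uvrag was also at -0.025 with quantile normalization and -0.12 with the block, Gabarapl2 at 0.038 with median-ratio rescaling, and Atg14 at 0.0050 with quantile normalization. Without 1 library, Bnip3 ranged from -0.71 to 0.013, Gabarapl2 from -0.083 to 0.079 and Uvrag from -0.12 to 0.11. Other alternatives (pseudocounts of 0.1 and 5, and a filter of 5 FPKM) changed no sign.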
